A study of Homo sapiens with 18 samples.

Results

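The 10 genes described here are the Sprouty genes SPRY1, SPRY2 and SPRY4, their relatives SPRED1 and SPRED2, the dual-specificity phosphatases DUSP4, DUSP5 and DUSP6, and the ETS factors ETV4 and ETV5. They were taken by gene symbol from a table of 28395 genes, as a set chosen with earlier results of these data known, together with the 47 of 85549 accessible chromatin regions that lay within 5 kb of any of them. All libraries came from K562, a human chronic myeloid leukaemia line that carries the BCR-ABL1 fusion kinase, stably transfected, selected with G-418 and kept as pools of cells rather than clones. V-K562 served as the control, B-K562 expressed wild type BASP1 (wtBASP1), a transcriptional corepressor that this line otherwise lacks, and G-K562 expressed BASP1-G2A, in which the glycine that receives an N-terminal myristoyl group is replaced by alanine. Each line was represented by 3 RNA-seq and 3 ATAC-seq libraries from replicate cultures. Cells for ATAC-seq were incubated with DNase before harvest.

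These genes form the negative feedback arm and part of the output of the RAS-ERK pathway. Growth factor receptors, and BCR-ABL1 in this line, activate RAS, which drives the kinases RAF, MEK and ERK in turn. ERK activity induces transcription of its own inhibitors, so their transcripts are widely read as a gauge of ERK output. Sprouty proteins are membrane-associated adaptors that restrain signalling from receptors to RAS and RAF, and SPRED proteins bring the RAS inactivator neurofibromin to the membrane. DUSP6 dephosphorylates ERK in the cytoplasm, and DUSP4 and DUSP5 do so in the nucleus. ETV4 and ETV5 are transcription factors made in response to ERK activity that carry the response on to other genes. Several genes of this kind are held down by the repressor capicua (CIC), which binds short TGAATG-containing sites and is released from them when ERK is active.

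The RNA-seq values were normalised read counts, that is, reads per gene divided by a size factor of the library, and they summed to 32342190 to 33229588 per library. Values of all 9 libraries are given on 1 scale, with B-K562 multiplied by 1.017, and each BASP1 line was tested against V-K562 only within its own deposited table. Where libraries of the lines are said below to overlap or to lie apart, the share of all genes that do so is not given here. BASP1 read between 5 and 7 in the V-K562 libraries, against 6294 to 6965 with wtBASP1 and 8124 to 12538 with BASP1-G2A, and WT1, the DNA-binding partner of BASP1, had a mean of 1210 in V-K562, 1390 in B-K562 and 3140 in G-K562. All 7 erythroid markers examined (GATA1, TAL1, KLF1, HBG1, HBG2, HBZ and TFRC) were at 385 or above in every library. Their sum lay between 84253 and 94462 in V-K562, between 149403 and 152562 in B-K562 and between 46919 and 53154 in G-K562. All 7 rose in B-K562 against V-K562 by limma's adjusted p. In G-K562, 6 of them fell, whereas TFRC, the transferrin receptor, which made up most of the sum there, rose from 20453, 22731 and 20919 to 35087, 28864 and 31068 (adjusted p 4.99e-05). The part of these shifts in the results below was not tested. Of 5 markers of other blood cells (CD3D, CD3E, MS4A1, CD14 and LYZ), MS4A1 was at 0 throughout, and the sum lay between 1807 and 1951 in V-K562, between 1502 and 1639 in B-K562 and between 4023 and 4501 in G-K562, most of it LYZ. Fewer cells making a transcript and less transcript per cell cannot be told apart in such bulk libraries.

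Of the 10 genes, SPRY4 carried the clearest contrast between the lines: its transcript fell by more than 2-fold with wtBASP1 and rose by 2-fold with BASP1-G2A. The sequences before the starts of SPRY4 and SPRY2, the latter the Sprouty gene that also rose in G-K562, are printed next as chromatin to which the ATAC-seq results refer. The SPRY4 start is that of the deposited gene table, and for SPRY2 the most upstream RefSeq start was used, which lies farther upstream than that of the deposited table. The third sequence, farther upstream of SPRY2, is the only region near these genes that passed the call for opening. It held no peak in V-K562, so it entered that test through its B-K562 peaks alone and was compared with a fixed floor. All sequences were read from GRCh38 on the minus strand, the strand of both genes, and capitals mark matches to a CIC octamer.

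SPRY4, the 300 bases before the start, chr5:142325056-142325355: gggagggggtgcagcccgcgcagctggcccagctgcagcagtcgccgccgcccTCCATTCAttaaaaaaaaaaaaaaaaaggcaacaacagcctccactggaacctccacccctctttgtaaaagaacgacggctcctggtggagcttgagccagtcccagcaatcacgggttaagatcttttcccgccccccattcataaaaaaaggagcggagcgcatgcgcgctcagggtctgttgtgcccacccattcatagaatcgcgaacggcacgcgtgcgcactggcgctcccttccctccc
SPRY2, the 300 bases before the most upstream RefSeq start, chr13:80341127-80341426: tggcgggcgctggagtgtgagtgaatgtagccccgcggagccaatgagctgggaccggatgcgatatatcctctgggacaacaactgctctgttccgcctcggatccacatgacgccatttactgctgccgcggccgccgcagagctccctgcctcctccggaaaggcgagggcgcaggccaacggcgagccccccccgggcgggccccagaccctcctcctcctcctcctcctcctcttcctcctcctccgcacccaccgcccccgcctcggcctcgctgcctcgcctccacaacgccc
SPRY2, 300 bases around the summit of the region opened in B-K562, chr13:80342923-80343222: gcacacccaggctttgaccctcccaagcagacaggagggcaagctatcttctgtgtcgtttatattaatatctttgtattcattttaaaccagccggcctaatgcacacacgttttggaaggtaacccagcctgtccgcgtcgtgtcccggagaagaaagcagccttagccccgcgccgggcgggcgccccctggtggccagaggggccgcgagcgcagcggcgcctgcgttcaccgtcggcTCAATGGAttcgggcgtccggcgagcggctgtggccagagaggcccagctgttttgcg

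The 4 CIC octamers searched, on both strands, were TGAATGAA, TGAATGGA, TCAATGAA and TCAATGGA. The SPRY4 sequence held 1 match, to TGAATGGA on the opposite strand, and the sequence opened in B-K562 held 1, to TCAATGGA, while the sequence before the RefSeq start of SPRY2 held none. A match to any of the octamers was found in 3.75% of 300-base windows centred on the summits of all 85549 regions and in 3.77% of the 35116 promoters of the RefSeq table for GRCh38.p14, which run from 250 bases before to 50 after a start. The shorter TGAATG, looked for after the sequences had been read, occurred 3 times before the SPRY4 start, 1 time before the RefSeq start of SPRY2 and 0 times in the sequence opened in B-K562. Of all windows, 14.3% held it and 0.263% held it 3 or more times. It was found in 11.8% of the RefSeq promoters, and among the members in a SPRED2 promoter and the DUSP6 promoter. TCAATGAA and TCAATGGA do not contain TGAATG. GENCODE v44 places an exon of the antisense gene SPRY4-AS1 in the SPRY4 window and no exon in either SPRY2 window. It also extends SPRY4 itself over the SPRY4 window, without a SPRY4 exon there. The printed sequence therefore lies before the deposited start but inside SPRY4 as GENCODE v44 draws it. In the same RefSeq table, 6 of the 10 genes matched 10 promoters (SPRY1, SPRY2, SPRY4, SPRED1, SPRED2 and DUSP6), and of these only the DUSP6 promoter held an octamer, TCAATGGA in 2 places. The SPRY4 promoter of that table, chr5:142324198-142324497, belongs to a start inside the gene as deposited, so it does not overlap the SPRY4 sequence printed above, which does hold a match. None of the 10 promoters held the ETS site CCGGAAGT (4.14% of all promoters), the EGR1 site GCGTGGGCG (0.795%) or the 10-base WT1 site (0.0655%), and a match or its absence describes the letters of these windows only.

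Expressed per kb of exon, ETV4 was the highest of the 10 genes in every line and DUSP6 or DUSP4 the lowest. In V-K562, the normalised count per kb was 669 ± 23.7 (SD, n = 3) for ETV4, 334 ± 13.2 for SPRED2, 295 ± 24.1 for SPRY4 and 268 ± 14.2 for ETV5. DUSP5 (117 ± 9.02), SPRY2 (98.9 ± 13.5) and SPRED1 (97.3 ± 11.9) followed, and DUSP4 (24.7 ± 2.73), SPRY1 (19.9 ± 2.02) and DUSP6 (4.62 ± 3.66) were low. The libraries of SPRY4 and ETV5 overlapped on this scale, as did those of DUSP5 with SPRY2 and of SPRY2 with SPRED1. In B-K562, SPRED1 moved up to 191 ± 3.81 per kb, level with ETV5 (181 ± 8.98), and SPRY4 dropped to 135 ± 6.18. In G-K562, ETV5 (610 ± 63.3) and SPRY4 (595 ± 41.4) overlapped each other and ETV5 overlapped ETV4 (682 ± 37.9).

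**Figure D1:**
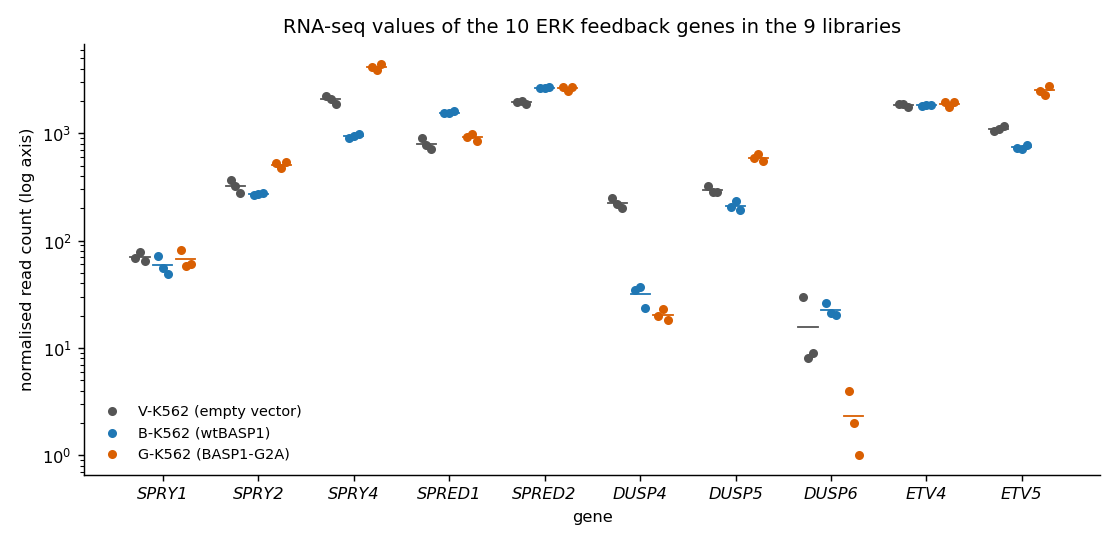
Normalised read counts of the 10 genes (log axis), with each point 1 library, the bar the mean of 3, and B-K562 placed on the scale of the other lines. SPRY4, DUSP5 and ETV5 sit lowest in B-K562 and highest in G-K562, DUSP4 is low in both BASP1 lines, and the lines overlap for ETV4.

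B-K562 was set against V-K562 to compare these transcripts between the lines with and without wtBASP1. A transcript was called when its adjusted p was at most 0.05 in limma's moderated test and its change at least 2-fold, and 2 of 10 were called lower (SPRY4 and DUSP4), against 14.1% of the 14958 genes tested, and 0 higher, against 6.46%. By the adjusted p alone, limma gave 4 lower (SPRY4, DUSP4, DUSP5 and ETV5), against 37.2% of all genes tested, and 2 higher (SPRED1 and SPRED2), against 38.6%. The median log2 difference was -0.26 over the 10 genes and 0.01 over all genes tested. Quantile normalisation, which moved the calls over all genes from 967 higher and 2109 lower to 1426 and 1554, left SPRY4 and DUSP4 lower and added DUSP6 to the higher calls.

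In the comparison of G-K562, whose BASP1 lacks the glycine that is myristoylated, with V-K562, 9 genes were tested and DUSP6 was too low to be. SPRY4 and ETV5 were called higher, against 8.81% of the 15271 genes tested, and DUSP4 was called lower, against 10.3%. The adjusted p alone added SPRY2, SPRED2 and DUSP5 to the higher genes, making 5 (33.5% of all genes tested), and left DUSP4 as the only lower one (33.3%). Both comparisons share the V-K562 cultures, so a level that was high or low there enters each of them.

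The direct comparison of G-K562 with B-K562 used all 9 libraries in 1 fit. SPRY4, DUSP5 and ETV5 were called higher in G-K562, against 17.4% of the 15521 genes tested, and DUSP6 was called lower, against 12.5%. DUSP6 was below the filter in every G-K562 library and was tested through libraries of the other lines. By the adjusted p alone, SPRY2 joined the higher genes (4, against 38.1%), and SPRED1 and DUSP4 joined the lower (3, against 40.5%), so 7 of 10 genes differed between the lines that express the 2 forms of BASP1, beside 78.5% of all genes tested.

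**Figure D2:**
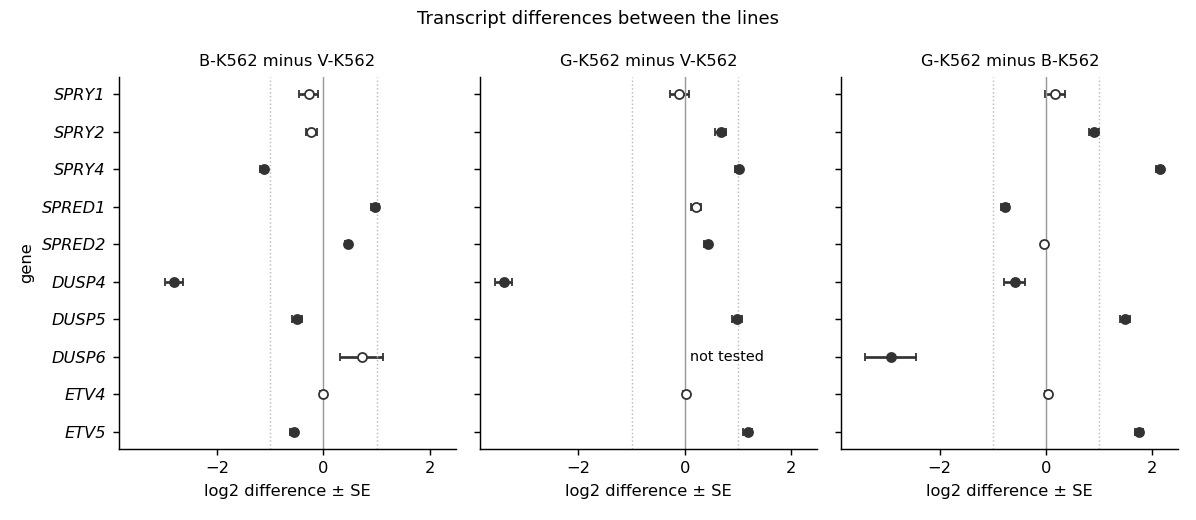
Log2 differences of the 10 transcripts with standard errors in each comparison, where filled points have an adjusted p of at most 0.05 (limma), dotted lines mark 2-fold and DUSP6 was not tested in G-K562 against V-K562. SPRY4, DUSP5 and ETV5 lie left of 0 in the first panel and right of 0 in the others, whereas DUSP4 lies left of 0 in all of them.

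SPRY4 (Entrez 81848, chr5:142310427-142325055, minus strand) encodes a Sprouty protein that restrains receptor signalling to RAS. Its normalised count was 2229, 2076 and 1892 in the V-K562 libraries, 901, 950 and 987 in B-K562, and 4163, 3880 and 4461 in G-K562. No library of any line reached the range of another. SPRY4 fell by 1.12 on the log2 scale in B-K562 (SE 0.07, limma adjusted p 3.4e-09), rose by 1.01 in G-K562 (SE 0.07, adjusted p 3.38e-07) and stood 4.40-fold above B-K562 in G-K562 (log2 2.14, SE 0.07, adjusted p 2.59e-12). The rise in G-K562 lay just past the 2-fold line, and it was 0.95 without V-K562 replicate 3 and 0.96 without G-K562 replicate 3. Part of SPRY4-AS1 lies before the SPRY4 start on the other strand, and although the library kit marks strand, the sources used here do not say whether the counting used it, so reads of the pair where they overlap may not have been separated.

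SPRY2 (Entrez 10253, chr13:80335976-80340951, minus strand) followed SPRY4 only in G-K562. It read 365, 321 and 277 in V-K562, 264, 274 and 277 in B-K562, and 524, 475 and 535 in G-K562. The G-K562 libraries stood above all others, and the highest B-K562 library met the lowest of V-K562. The transcript was 1.60-fold higher in G-K562 than in V-K562 (log2 0.68, SE 0.11, limma adjusted p 0.000171) and 1.88-fold higher than in B-K562 (log2 0.91, SE 0.10, adjusted p 8.22e-07), while the difference of -0.23 between B-K562 and V-K562 missed the threshold (SE 0.10, adjusted p 0.053) but passed it without V-K562 replicate 3 (-0.34, adjusted p 0.00363).

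SPRY1 (Entrez 10252, chr4:123396791-123403760, plus strand) was low in all lines and did not pass the test in any comparison. Its counts were 69, 79 and 65 in V-K562, 72.2, 55.9 and 48.8 in B-K562, and 82, 58 and 60 in G-K562, and the lines overlapped. The log2 differences were -0.28 (SE 0.17) for B-K562 and -0.10 (SE 0.18) for G-K562, with limma adjusted p 0.157 and 0.623, and the former was -0.43 with an adjusted p of 0.0431 without B-K562 replicate 1.

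SPRED1 (Entrez 161742, chr15:38252087-38357249, plus strand), which recruits neurofibromin to RAS at the membrane, went the other way from SPRY4. It read 904, 770 and 715 in V-K562, 1538, 1547 and 1596 in B-K562, and 915, 984 and 847 in G-K562. Every B-K562 library lay above every library of the other lines, which overlapped each other. The rise in B-K562 was 1.97-fold (log2 0.98, SE 0.08, limma adjusted p 5.77e-08), just short of the 2-fold line, and the level in G-K562 was lower than in B-K562 by a log2 difference of -0.77 (SE 0.08, adjusted p 6.71e-07). Without V-K562 replicate 1, the highest of its line, the B-K562 rise was 1.07 and passed the 2-fold line, and the G-K562 difference of 0.20 (SE 0.09, adjusted p 0.0737) became 0.30 with an adjusted p of 0.0108.

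SPRED2 (Entrez 200734, chr2:65307435-65432637, minus strand) rose by a like amount in both BASP1 lines. The values were 1938, 2018 and 1865 in V-K562, 2653, 2660 and 2694 in B-K562, and 2720, 2460 and 2689 in G-K562. Both BASP1 lines stood above V-K562 and overlapped each other. The log2 difference from V-K562 was 0.46 (SE 0.05, limma adjusted p 1.22e-06) in B-K562 and 0.43 (SE 0.06, adjusted p 7.96e-05) in G-K562, and that between G-K562 and B-K562 was -0.03 (SE 0.05, adjusted p 0.652).

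DUSP4 (Entrez 1846, chr8:29333062-29350750, minus strand), a nuclear phosphatase of ERK and other MAP kinases, showed the largest fall of the 10 genes against V-K562, in both BASP1 lines. It read 251, 220 and 202 in V-K562, 34.6, 36.6 and 23.4 in B-K562, and 20, 23 and 18 in G-K562. All 6 BASP1 libraries were far below the V-K562 libraries, and those of G-K562 were all below those of B-K562. DUSP4 was 7.02-fold lower in B-K562 (log2 -2.81, SE 0.17, limma adjusted p 5.86e-09) and 10.6-fold lower in G-K562 (log2 -3.40, SE 0.16, adjusted p 1.21e-08). The difference of -0.59 between G-K562 and B-K562 (SE 0.19, adjusted p 0.0118) rested partly on B-K562 replicate 2, without which it was -0.47 with an adjusted p of 0.057.

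DUSP5 (Entrez 1847, chr10:110497867-110511544, plus strand), a nuclear phosphatase of ERK, had the pattern of SPRY4 at a lower level. Counts were 323, 284 and 283 in V-K562, 205, 232 and 193 in B-K562, and 582, 635 and 548 in G-K562, with no overlap between any pair of lines. The transcript fell by 0.50 on the log2 scale in B-K562 (SE 0.10, limma adjusted p 0.000421) and rose by 0.98 in G-K562 (SE 0.09, adjusted p 2.5e-06), just inside 2-fold, with 1.05 when V-K562 replicate 1 was left out. Between G-K562 and B-K562 it differed 2.79-fold (log2 1.48, SE 0.09, adjusted p 2.87e-09).

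DUSP6 (Entrez 1848, chr12:89347825-89352859, minus strand), the cytoplasmic ERK phosphatase most often used as a readout of ERK activity, was close to the limit of detection. It read 30, 8 and 9 in V-K562, 26.4, 21.4 and 20.3 in B-K562, and 4, 2 and 1 in G-K562. The G-K562 libraries lay below all others, while V-K562 replicate 1 stood above every B-K562 library and the other V-K562 replicates below. Summed over the libraries, G-K562 held 7, against 47 in V-K562, a ratio of 6.71 (95% binomial interval 3.02 to 17.6), and against 68 in B-K562 as deposited there and rescaled, a ratio of 9.71 (4.47 to 25.1). The intervals treat the scaled and rounded values as read counts and cover counting error only, not the spread between libraries. Without V-K562 replicate 1 the first ratio, per library, was 3.64 (1.44 to 10.4). In limma the G-K562 level was below that of B-K562 (log2 -2.92, SE 0.47, adjusted p 5.49e-05). DUSP6 entered that test through its B-K562 libraries and V-K562 replicate 1, the only ones at 10 or more. That adjusted p is therefore no independent support for a lower level. The 0.72 higher level of B-K562 than V-K562 (SE 0.41) had an adjusted p of 0.122. Without V-K562 replicate 1 the difference was 1.29 (limma adjusted p 0.00221). DUSP6 then entered the test through its B-K562 libraries alone, so this value is no independent support for a rise.

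ETV4 (Entrez 2118, chr17:43527843-43546432, minus strand) did not pass the test in any comparison. It read 1891, 1881 and 1773 in V-K562, 1810, 1852 and 1846 in B-K562, and 1942, 1764 and 1949 in G-K562, and all lines overlapped. The log2 difference from V-K562 was -0.01 (SE 0.05, limma adjusted p 0.878) in B-K562 and 0.03 (SE 0.06, adjusted p 0.719) in G-K562, the smallest of the members tested in both comparisons. With quantile normalisation ETV4 passed, without reaching 2-fold, in B-K562 against V-K562 (-0.16, adjusted p 0.00791) and in G-K562 against B-K562 (0.14, adjusted p 0.0235).

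ETV5 (Entrez 2119, chr3:186046317-186109112, minus strand), the close relative of ETV4, fell in B-K562 and rose in G-K562. The counts were 1043, 1093 and 1159 in V-K562, 735, 712 and 784 in B-K562, and 2476, 2259 and 2776 in G-K562, again without overlap between lines. ETV5 fell by 0.56 on the log2 scale in B-K562 (SE 0.06, limma adjusted p 2.11e-06) and rose by 1.18 in G-K562 (SE 0.08, adjusted p 1.72e-07). G-K562 stood 3.35-fold above B-K562 (log2 1.75, SE 0.07, adjusted p 4.08e-11).

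The other genes around these loci give the local background. Over the 76 tested genes within 5 Mb of SPRY4, the median log2 difference of B-K562 against V-K562 was -0.10, and over 83 it was 0.05 in G-K562. The medians around DUSP4 were 0.10 and -0.13 (37 genes each) and those around ETV5 were 0.03 (52 genes) and -0.21 (55 genes). The lowest median of G-K562 against V-K562 was that around DUSP6, -0.62 over 29 genes.

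The ATAC-seq value of a region was its summit pileup, the highest stack of reads in a called peak, taken from equal numbers of reads per library, with 47111 to 55570 peaks called per library. Of the 47 regions within 5 kb of the 10 genes, 16 (34.0%) held a peak in all 9 libraries, against 31.5% of all regions, and 10 held a peak in a single library. SPRED2, the longest of the genes, had 16 regions, and the others had 2 to 5 each. A region was tested when at least 3 of the libraries compared held a peak, and a library without a peak was set to a floor of 17. Summits are printed below as deposited, and statements that libraries overlap or lie above others refer to these unscaled values. Differences and adjusted p come from scaled summits unless another setting is named. The share of all regions with such separation between lines is not given here.

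In B-K562 against V-K562, 25 of the regions were tested, and 1 was called opened at 2-fold or more (1.53% of the 52204 regions tested) and 0 closed (6.12%). By limma's adjusted p alone the counts were 4 opened (8.69%) and 5 closed (16.5%). In G-K562 against V-K562, 27 were tested, 0 were called opened (2.92% of 54213) and 2 closed (13% of 54213), both at DUSP4, with 5 opened (16.2%) and 4 closed (25.8%) by limma's adjusted p alone. Both of the DUSP4 regions called closed rested on the floor in G-K562. In G-K562 against B-K562, 30 were tested, 0 were called opened (4.32% of 60181) and 1 closed (8.56%), again at DUSP4, with 2 opened (12.4%) and 2 closed (15.5%) by limma's adjusted p alone, or 4 in all (27.9%). Scaling shifted all of these values together: without it, the median log2 difference over all regions moved from -0.06 to 0.06 in B-K562 and from -0.09 to 0.19 in G-K562 against V-K562, and the share of closed regions among calls went from 80.0% to 66.1% and from 81.7% to 51.5%.

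DUSP4 had the chromatin difference largest in size among the members. The region over its start, chr8:29350477-29351160, had summits of 41, 64 and 57 in V-K562, 41, 37 and 63 in B-K562, and a single called peak of 13 in G-K562. The B-K562 libraries overlapped those of V-K562, and no G-K562 library held a peak above the floor. The difference was -0.36 (SE 0.26, limma adjusted p 0.332) in B-K562 against V-K562, or -0.66 (adjusted p 0.0922) with scaling within bins of GC content, -1.76 in G-K562 against V-K562 (SE 0.20, adjusted p 0.000633) and -1.39 in G-K562 against B-K562 (SE 0.24, adjusted p 0.00209), where the G-K562 value rests on the floor. The region had the 3 peaks needed for these G-K562 tests through the other lines, so their adjusted p are no independent support for closing. A second region, in an intron with its summit 9270 bp after the start, had summits of 23, 38 and 38 in V-K562 and no peak in any BASP1 library. This region entered the test only through those V-K562 peaks and was compared with the floor, so its adjusted p is no independent support for closing. Its difference was -0.95 in B-K562 (SE 0.21, adjusted p 0.0141) and -1.05 in G-K562 (SE 0.21, adjusted p 0.00582), the latter under 2-fold with scaling within bins of GC content (-0.94) and without scaling (-0.88), and it lacked the 3 peaks needed for a test when any V-K562 library was left out. Against this, an intronic region 10430 bp after the start was present in all 9 libraries at 40 to 79, with limma adjusted p 0.704 and 0.791 for the BASP1 lines against V-K562. In B-K562 the DUSP4 transcript was therefore 7.02-fold lower while the difference at the start region did not pass the test under either scaling.

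The region over the SPRY4 start, chr5:142324630-142325415, which holds the sequence shown above, had summits of 79, 78 and 66 in V-K562, 113, 130 and 102 in B-K562, and 168, 126 and 179 in G-K562. Both BASP1 lines were above every V-K562 library. The difference from V-K562 was 0.47 in B-K562 (SE 0.14, limma adjusted p 0.0359), where the transcript fell, and 0.72 in G-K562 (SE 0.15, adjusted p 0.00631), where it rose, and the lines differed from each other by 0.23 (SE 0.14, adjusted p 0.285). The B-K562 difference did not hold with scaling within bins of GC content (0.33, adjusted p 0.137) or with the mean pileup in place of the summit (0.19, adjusted p 0.367), nor without replicate 2 or 3 of V-K562 or replicate 1 or 2 of B-K562 (adjusted p 0.0659 to 0.112), and the G-K562 difference held in both (0.52 and 0.36).

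The region at the SPRY2 start, chr13:80341110-80341636, began 159 bp upstream of the start in the deposited table and reached over the most upstream RefSeq start. It had summits of 60, 92 and 74 in V-K562, 95, 98 and 64 in B-K562, and 156, 128 and 171 in G-K562. G-K562 stood above the other lines, as its transcript did. The difference in G-K562 was 0.67 against V-K562 (SE 0.17, limma adjusted p 0.0148) and 0.62 against B-K562 (SE 0.19, adjusted p 0.0379), and neither held with scaling within bins of GC content (0.31 with adjusted p 0.181, and 0.53 with adjusted p 0.0709). The difference from B-K562 also missed it without V-K562 replicate 3, replicate 1 or 3 of B-K562 or replicate 1 or 3 of G-K562 (adjusted p 0.0506 to 0.114). The separate region with its summit 2121 bp upstream of the deposited start, chr13:80342796-80343263, had no peak in V-K562, summits of 46, 41 and 32 in B-K562, and a peak only in replicate 2 of G-K562, at 39. It was the 1 region called opened in B-K562, with a difference from the floor of 1.09 (SE 0.18, adjusted p 0.0054), and it lacked the 3 peaks needed for a test when any B-K562 library was left out. Since it entered the test only through its B-K562 peaks, this adjusted p is no independent support for opening. The SPRY2 transcript was not higher in B-K562.

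The start of ETV5 was the most accessible of the 10 genes, with summits of 198, 205 and 228 in V-K562, 268, 298 and 315 in B-K562, and 329, 328 and 348 in G-K562 at chr3:186108905-186109576. As at SPRY4, both BASP1 lines were above V-K562 in these unscaled summits, where the differences were 0.48 in B-K562 and 0.67 in G-K562. After scaling the differences were 0.33 in B-K562 (SE 0.10, limma adjusted p 0.0412) and 0.33 in G-K562 (SE 0.08, adjusted p 0.0113), although the transcript moved down in the former and up in the latter, and with scaling within bins of GC content they were 0.16 (adjusted p 0.294) and 0.06 (adjusted p 0.542). The first also missed the threshold without replicate 1 or 2 of V-K562 or replicate 2 or 3 of B-K562 (adjusted p 0.0987 to 0.11). The ETV4 start, chr17:43545457-43546791, read 42, 56 and 48 in V-K562, 100, 78 and 76 in B-K562, and 61, 82 and 72 in G-K562. The B-K562 difference of 0.64 (SE 0.16, adjusted p 0.0249) was 0.43 (adjusted p 0.113) with that scaling, and missed the threshold without replicate 1 or 3 of V-K562 or replicate 1 or 2 of B-K562 (adjusted p 0.0525 to 0.0838), and the transcript did not pass in that comparison. Further differences at the ETV4 start passed under 1 scaling each, G-K562 against V-K562 without scaling (0.55, adjusted p 0.0352) and G-K562 against B-K562 within bins of GC content (-0.53, adjusted p 0.0303).

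The start regions of DUSP5, SPRED1, SPRED2 and SPRY1 did not pass the test in any comparison. Their summits across the 9 libraries ran from 78 to 108 at DUSP5, from 50 to 99 at SPRED1, from 112 to 194 at SPRED2 and from 23 to 40 at SPRY1, where V-K562 replicate 1 had no peak. The largest of their differences in size was 0.29 (SE 0.29), at SPRY1 between G-K562 and B-K562. Without any scaling, the SPRED1 start passed in G-K562 against V-K562 (0.57, limma adjusted p 0.0323). The DUSP5 start passed in the same comparison with scaling within bins of GC content, in the direction of closing (-0.46, adjusted p 0.0225). Beyond the end of DUSP5, a region 15029 bp after the start read 30, 40 and 41 in V-K562, 16, 15 and 27 in B-K562, and 47, 44 and 24 in G-K562. Its difference was -0.94 in B-K562 (SE 0.23, limma adjusted p 0.0213), held with scaling within bins of GC content (-0.84, adjusted p 0.048), and was -0.33 in G-K562 (SE 0.29, adjusted p 0.399). DUSP6 had no peak over its start in any library, and its nearest region in all 9 libraries lay 6395 bp after the start, beyond the gene's end, with 93, 93 and 103 in V-K562, 73, 66 and 66 in B-K562, and 78, 54 and 87 in G-K562. Every library of the BASP1 lines was below those of V-K562 there. The difference was -0.64 in B-K562 (SE 0.12, limma adjusted p 0.00712) and -0.76 in G-K562 (SE 0.17, adjusted p 0.00983), and neither held with scaling within bins of GC content (adjusted p 0.0643 and 0.184).

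**Figure D3:**
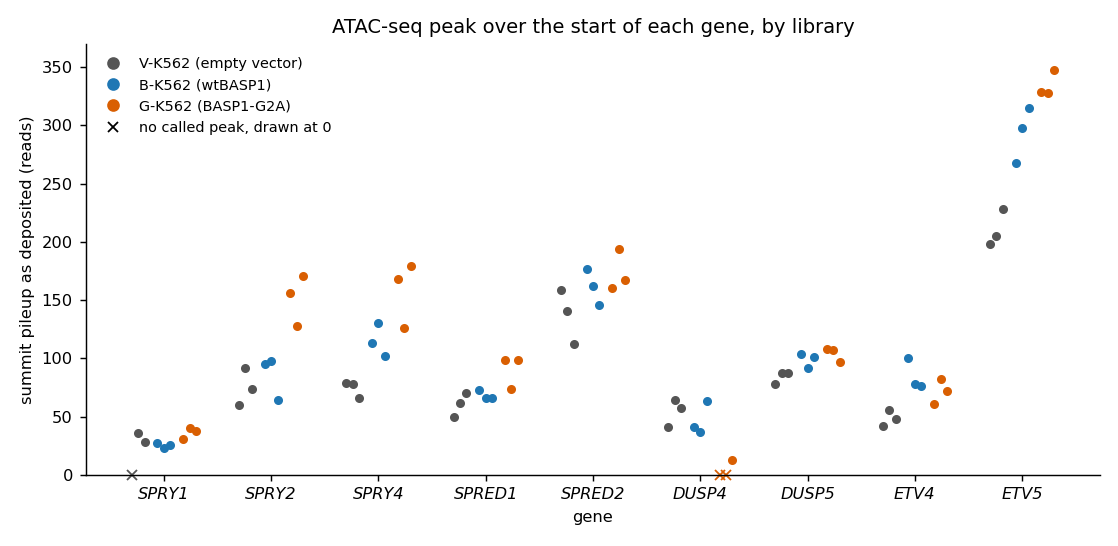
Summit pileups as deposited, in reads and without scaling, of the ATAC-seq peak at the start of 9 of the genes, with each point 1 library and crosses at 0 where no peak was called. DUSP4 is nearly without peaks in G-K562, SPRY4 and ETV5 are higher in both BASP1 lines than in V-K562, and SPRY2 is highest in G-K562.

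Within SPRED2, an intronic region 49597 bp after the start, chr2:65382775-65383363, stood out in G-K562. It had summits of 84, 95 and 76 in V-K562, 82, 94 and 64 in B-K562, and 135, 158 and 182 in G-K562. The G-K562 libraries did not overlap the others, with a difference of 0.54 from V-K562 (SE 0.14, limma adjusted p 0.0169) and 0.77 from B-K562 (SE 0.16, adjusted p 0.00535), and both held with scaling within bins of GC content (0.69 and 0.79). Another intronic region, 73021 bp after the start, read 85, 82 and 78 in V-K562, 125, 107 and 105 in B-K562, and 146, 158 and 176 in G-K562, a difference of 0.62 in G-K562 from V-K562 (SE 0.11, adjusted p 0.00337). A region 11677 bp after the start fell in B-K562 by 0.96 on the log2 scale (SE 0.16, limma adjusted p 0.00494), from 31, 36 and 33 to peaks of 20 and 14 in only 2 libraries. Its V-K562 peaks alone met the rule for a test, and replicates 2 and 3 of B-K562 were set to the floor. That adjusted p is therefore no independent support for closing. The SPRED2 transcript itself differed little between the BASP1 lines.

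**Figure D4:**
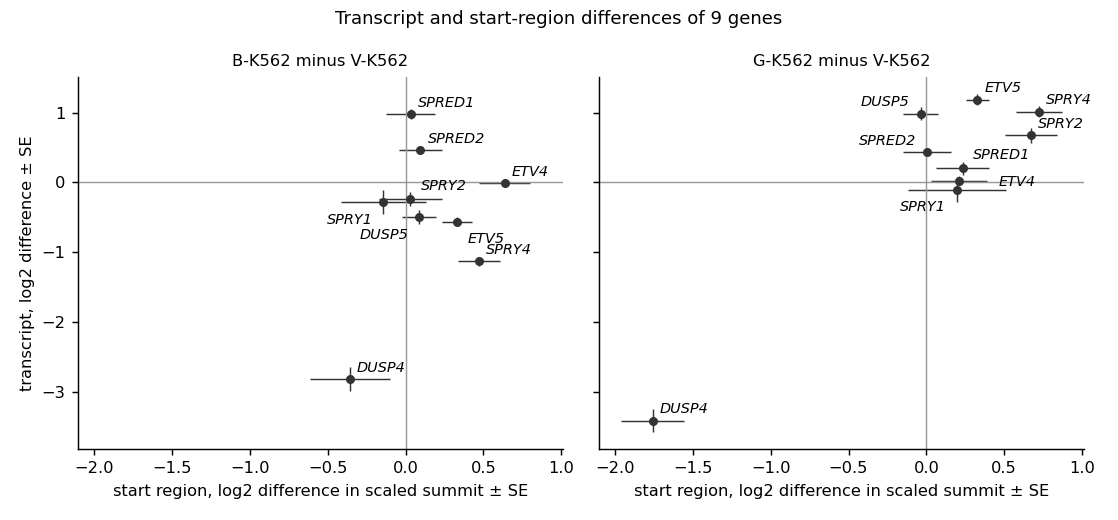
Log2 difference of the transcript (vertical) against that of the start region (horizontal) for the 9 genes with a peak there, with standard errors. In B-K562 minus V-K562, SPRY4 lies at 0.47 across and -1.12 down, and in G-K562 minus V-K562 it lies at 0.72 across and 1.01 up, while DUSP4 is at the lower left at -1.76 and -3.40.

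The rest of the pathway was examined through 3 lists. Of 20 other ERK feedback and target genes, 16 were tested: in B-K562 against V-K562, 7 were called lower and 0 higher (limma adjusted p and 2-fold), against 14.1% and 6.46% of all genes tested, with a median log2 difference of -0.91. By the adjusted p alone, 10 were lower and 6 higher, against 37.2% and 38.6%. The largest fall was that of EPHA2, a receptor tyrosine kinase and ERK target, which read 50, 19 and 21 in V-K562 and 3.05, 8.14 and 5.08 in B-K562 (log2 -2.20, SE 0.42, adjusted p 0.000296). In G-K562 against V-K562, 3 of the 16 were called higher and 3 lower (median -0.19), against 8.81% and 10.3% of all genes, and 6 were higher and 8 lower by the adjusted p alone, against 33.5% and 33.3%. IER3, an immediate early gene induced by ERK, rose most, from 1508, 1304 and 1392 in V-K562 to 5313, 5445 and 5174 in G-K562 (log2 1.92, SE 0.06, adjusted p 8.53e-10), and EPHA2 fell most (log2 -2.57, SE 0.43, adjusted p 0.000257). IER3 read 708, 669 and 729 in B-K562, so it too was lowest in B-K562 and highest in G-K562.

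Between G-K562 and B-K562, 5 of the 16 were called higher and 2 lower (median 0.06), against 17.4% and 12.5% of all genes, and 7 were higher and 6 lower by the adjusted p alone, against 38.1% and 40.5%. IER3 differed most upwards (log2 2.92, SE 0.06, limma adjusted p 4.72e-14). DUSP7, another cytoplasmic ERK phosphatase, had the largest fall (log2 -1.19, SE 0.07, adjusted p 9.21e-10), from 860, 901 and 943 in B-K562 to 394, 392 and 393 in G-K562, beside 538, 505 and 474 in V-K562.

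All 25 genes of the RAS-ERK core were tested. In B-K562 against V-K562, 2 were called higher and 2 lower at 2-fold (median -0.04), against 6.46% and 14.1% of all genes tested, and 10 were higher and 9 lower by the adjusted p alone, against 38.6% and 37.2%. GAB1, a docking protein downstream of receptors, rose most, from 484, 477 and 460 to 1136, 1116 and 1139 (log2 1.25, SE 0.06, limma adjusted p 4.76e-10), and ETS1, an ERK-regulated transcription factor, fell most, from 794, 844 and 1030 to 121, 113 and 116 (log2 -2.91, SE 0.10, adjusted p 2.72e-11). In G-K562 against V-K562, 7 were higher and 10 lower by the adjusted p alone, against 33.5% and 33.3% of all genes tested. ETS1 was the 1 gene called at 2-fold, lower, at 184, 129 and 237 (log2 -2.31, SE 0.18, adjusted p 6.38e-07), where 8.81% of all genes were called higher and 10.3% lower. GAB2, the docking protein through which BCR-ABL1 reaches RAS, was the 1 gene called higher when G-K562 was set against B-K562 (log2 2.19, SE 0.06, adjusted p 1.26e-12), at 7527, 7614 and 8658 in V-K562, 2090, 2144 and 2222 in B-K562, and 10552, 9036 and 9856 in G-K562. GAB1 was the 1 gene called lower there (log2 -1.66, SE 0.08, adjusted p 8.85e-11), at 319, 392 and 364 in G-K562, and 10 genes passed in each direction by the adjusted p alone. Over all genes tested, 17.4% were called higher and 12.5% lower in that comparison, and 38.1% and 40.5% by the adjusted p alone.

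Of 15 genes for receptors, ABL1 and BCR, 12 were tested. In B-K562 against V-K562, 5 were called lower and 0 higher (median -0.30), against 14.1% and 6.46% of all genes tested, while by limma's adjusted p alone 7 were lower and 4 higher, against 37.2% and 38.6%. The largest fall was that of FGFR1, a receptor for fibroblast growth factors, which read 132, 122 and 139 in V-K562 and 35.6, 21.4 and 27.5 in B-K562 (log2 -2.20, SE 0.19, limma adjusted p 1.28e-07). In G-K562 against V-K562, 2 were called lower and 0 higher (median 0.22), against 10.3% and 8.81% of all genes, with 5 lower and 6 higher by limma's adjusted p alone, against 33.3% and 33.5%. The larger of these falls was that of PDGFRB, a receptor for platelet-derived growth factor, from 36, 30 and 28 to 13, 10 and 11 (log2 -1.39, SE 0.24, adjusted p 0.00036). Between G-K562 and B-K562, 3 were called higher and 0 lower (median 0.004), against 17.4% and 12.5%, with 4 in each direction by limma's adjusted p alone, against 38.1% higher and 40.5% lower. FGFR1 had the largest rise, at 178, 208 and 203 in G-K562 (log2 2.79, SE 0.17, adjusted p 1.48e-09).

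**Figure D5:**
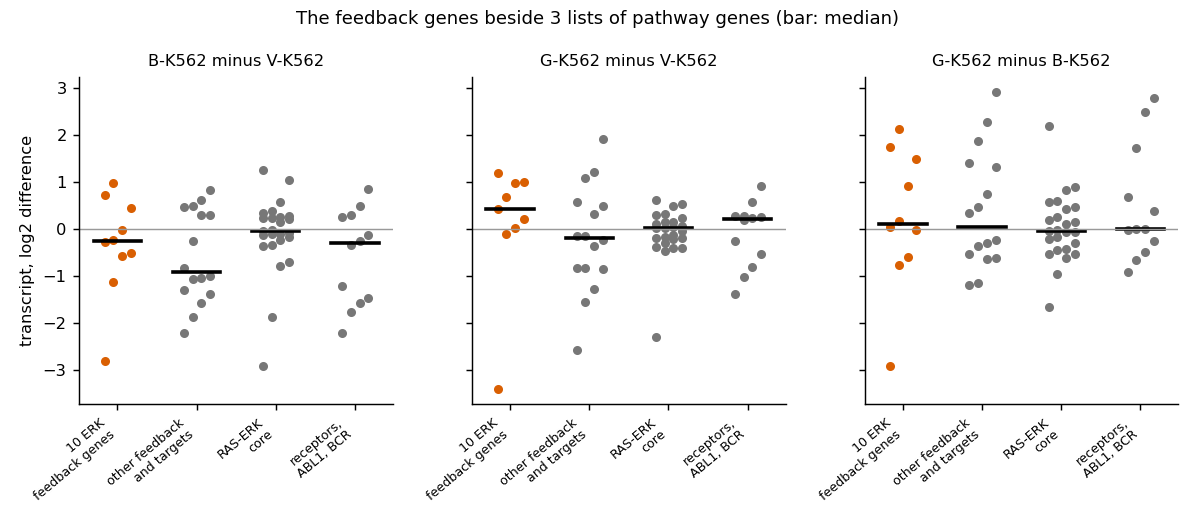
Log2 differences of the 10 genes (orange) and of the tested genes of 3 pathway lists (grey) in each comparison, with a bar at the median of each. The members' medians are -0.26, 0.43 and 0.11 from left to right, and the other feedback and target genes have a median of -0.91 in the first panel.

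The genes whose centred log2 values followed the members most closely over the 9 RNA-seq libraries were sought among 11384 genes with a mean of at least 100. For ETV4, the member with the highest level per kb, they were STAMBP, RFX7 and KANSL1 (root mean square differences of 0.035, 0.038 and 0.042 on the log2 scale), and for SPRED2, the next highest, ARID2, PRKD3 and ATRX (0.033, 0.033 and 0.034). For SPRY4, added after its values were seen, they were CCNO, HPGD and VANGL2 (0.072, 0.094 and 0.107).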

How the data were processed

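RNA-seq values were deposited by the authors as signal, reads per RefSeq gene (Subread, GRCh38) divided by DESeq2 size factors and rounded, in 1 table per BASP1 line with V-K562. The authors aligned the reads with STAR. ATAC-seq intervals were deposited by the authors per library with a summit pileup as signal (alignment with BWA-MEM, duplicates removed, MACS2 on equal numbers of tags). Columns of the authors' own comparisons (fold changes and p-values) were not used.

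Here, log2(value + 1) was tested with limma 3.58.1 (R 4.3.3, trended prior variance) over genes at 10 or more in at least 3 libraries, with Benjamini-Hochberg adjustment over all genes tested. A log2 difference on this scale understates the change of low genes. Tables were joined for G-K562 against B-K562 by the V-K562 ratio of 1.017. ATAC-seq intervals of all libraries were merged into 85549 regions (mean 426 bp), whose highest summits were scaled by a trimmed mean and floored at 17, the 5th percentile. Interval starts were read as counted from 0. Summaries used Python 3.11.15, pandas 2.3.3, numpy 2.4.6, scipy 1.17.1 and matplotlib 3.10.9, and each test was checked on simulated data. The members, the pathway lists and the tests were chosen with earlier results of these data known. All members were named. A few genes of the marker and pathway lists are not reported here. From each list, the largest rise and largest fall among called genes of each comparison were named. Alternatives were the pseudocount, filter, normalisation, prior variance, joint fit, replicate block, scaling, floor, pileup measure, peak minimum, distance and each library left out. The cultures are replicates of 1 pool per line, so p-values measure the spread between cultures of that pool only, and depth was taken from the scaled values alone, since the read totals in the study's supplement were not used here. SPRY4 and SPRY4-AS1, and other genes with an antisense partner, were taken as counted. The RNA-seq kit marks strand, and whether the counting used strand is not given in the sources used here.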

Additional observations from a re-analysis of the deposited data

Results flagged for a closer look

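The lines expressing wtBASP1 and BASP1-G2A differed for 7 of the 10 transcripts by the test of G-K562 against B-K562 (limma adjusted p of at most 0.05, which 78.5% of all genes tested passed). With 1 pool per line, an effect of the BASP1 form cannot be told apart from other differences between the pools. The mean of BASP1 was 6663 in B-K562 and 9995 in G-K562, and that of WT1 was 1390 and 3140. The log2 difference was 2.14 for SPRY4, 1.75 for ETV5, 1.48 for DUSP5 and 0.91 for SPRY2, all 3 G-K562 libraries being above all 3 B-K562 libraries in each. It was -0.77 for SPRED1, -0.59 for DUSP4 and -2.92 for DUSP6, with all 3 G-K562 libraries below. The share of all genes whose libraries separate in this way is not given here. DUSP6 passed the filter through libraries of the other lines, so its adjusted p is no independent support.

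The same test marked 4 chromatin regions near these genes, against 27.9% of all regions tested. The difference was -1.39 at the DUSP4 start, 0.62 at the SPRY2 start, -0.84 at the region 2121 bp upstream of SPRY2 and 0.77 in the SPRED2 intron 49597 bp after the start. At the DUSP4 start all G-K562 values rested on the floor and the region was tested through peaks of the other lines. Its adjusted p is therefore no independent support for closing. The difference at the region upstream of SPRY2 missed the threshold when any library was left out other than replicate 3 of B-K562 or replicate 2 of G-K562. That region had the peaks needed for a test through B-K562, and only replicate 2 of G-K562 was not set to the floor. Its adjusted p is therefore no independent support for closing. No group held the 4 samples or more that a search for single outlying libraries needs.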

How the results depend on the processing

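Of 298 recomputed log2 differences of transcripts that passed the adjusted p, 297 kept their direction and passed again, the exception being DUSP4 between the BASP1 lines without B-K562 replicate 2. Of 150 for chromatin regions at the starts or called at 2-fold, 117 did, and 33 kept their direction but no longer passed. Fits in which such a region lacked the peaks needed for a test are not among the 150. The intronic SPRED2 regions and the regions beyond the ends of DUSP5 and DUSP6 are not among them either. The counts of 2-fold calls moved as follows. In B-K562 against V-K562, higher genes numbered 1 with quantile normalisation and 2 by adjusted p alone in place of 0, and lower genes 4 by adjusted p alone in place of 2. In G-K562 against V-K562, lower genes numbered 2 with no filter and with all 9 libraries in 1 fit in place of 1, since DUSP6 was then tested, and higher genes 5 by adjusted p alone. In G-K562 against B-K562, lower genes numbered 0 when a value of 10 was required in every library, since DUSP6 was then not tested, and 3 by adjusted p alone. With a library left out, the counts ran from 0 to 2 higher in B-K562 (2 without V-K562 replicate 1, SPRED1 and DUSP6) and from 1 to 3 higher in G-K562 (1 without V-K562 replicate 3). Without V-K562 replicate 1, DUSP6 passed the filter through its B-K562 libraries alone.

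For regions in B-K562 against V-K562, closed regions numbered 3 with the floor at the lowest summit and 5 by adjusted p alone in place of 0, and opened regions 4 by adjusted p alone and 0 with a peak required in every library or within the gene itself in place of 1. In G-K562 against V-K562, opened regions numbered 2 without scaling and 5 by adjusted p alone in place of 0, and closed regions 1 without scaling, with scaling within GC bins or with the mean pileup, 0 with a peak in every library and 4 by adjusted p alone in place of 2. Between the BASP1 lines, opened regions numbered 1 with the lowest floor and 2 by adjusted p alone in place of 0, and closed regions 2 with either of these and 0 with a peak in every library in place of 1. With a library left out, 0 to 1 opened and 0 to 2 closed in B-K562 (2 without V-K562 replicate 1), 1 to 2 closed in G-K562 (1 without any V-K562 library or without G-K562 replicate 3) and 1 to 2 closed between the BASP1 lines (2 without G-K562 replicate 2).

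Only log2 differences that had not passed changed sign. With quantile normalisation SPRY1 went to 0.186, 0.066 and -0.122 in the 3 comparisons in turn, ETV4 to -0.017 in G-K562 against V-K562 and SPRED2 to 0.102 between the BASP1 lines. With a library left out, ETV4 ran from -0.041 to 0.009 in B-K562 and from -0.002 to 0.074 in G-K562, and SPRED2 from -0.054 to 0.019 between the BASP1 lines. Scaling within GC bins gave start regions in B-K562 values of -0.218 (DUSP5), 0.006 (SPRY1), -0.223 (SPRY2), -0.059 (SPRED1) and -0.052 (SPRED2), and in G-K562 against V-K562 -0.099 (ETV4) and -0.204 (SPRED2). SPRY1 in B-K562 was 0.095 with the lowest floor and 0.002 with the mean pileup. DUSP5 in G-K562 against V-K562 was 0.305 without scaling and 0.053 with the mean pileup, and between the BASP1 lines the values without scaling were 0.071 (DUSP5), 0.192 (ETV5) and 0.102 (SPRED2), with 0.053 for ETV5 by the mean pileup. With a library left out, start regions in B-K562 ran from -0.456 to 0.095 (SPRY1), -0.113 to 0.234 (SPRY2), -0.090 to 0.138 (SPRED1) and -0.047 to 0.215 (SPRED2), those in G-K562 against V-K562 from -0.081 to 0.055 (DUSP5), -0.147 to 0.466 (SPRY1) and -0.140 to 0.124 (SPRED2), and ETV5 between the BASP1 lines from -0.099 to 0.038. The cause was not tested.

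Deviations of libraries with the same replicate number correlated at -0.08 to 0.14 over 9 pairs in RNA-seq and at 0.01 to 0.12 in ATAC-seq, so not every pair passed 0.1 and the numbers were not taken as pairs. The correlation exceeded those of the first library of a pair with the other line's remaining libraries in 2 of 9 pairs in RNA-seq but in 7 of 9 in ATAC-seq, a hint of shared numbers there. With a replicate block, no count of 2-fold calls changed, the B-K562 difference of SPRY2 had an adjusted p of 0.0415, that of SPRED1 in G-K562 0.0499, and that of the SPRY2 start between the BASP1 lines 0.056. The depth behind low values such as those of DUSP6 and SPRY1 was judged from the scaled values alone, and no peak called does not mean no reads.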
